A study of Homo sapiens with 6 samples.

Results

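The regions described here are 377 stretches of the human genome where CUT&RUN peaks recurred at the end of a protein-coding gene and a peak of the IgG control was called as well. They were chosen from the peak lists themselves. Peaks of the 4 MYT1L libraries were merged where they overlapped by at least 1 bp, which gave 49028 regions on chromosomes 1 to 22, X and Y, and 12299 of these were reproducible, meaning present in 3 or 4 of the MYT1L lists. Of the 12299 regions, 1208 overlapped a peak of either IgG list by at least 1 bp, and 377 of the 1208 lay within 1000 bp of an end of a protein-coding gene in the RefSeq GRCh38 gene table (31.2%). Without IgG replicate 2 the same rule gave 114 regions, 14.5% of the IgG-overlapping ones. Peak presence and strength in the 6 lists chose the regions, so those values are given below as a description and without a test.

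All 6 libraries came from wild-type (WT) cells of H1, an established human embryonic stem cell line, labelled day 30, and differ only in the antibody: MYT1L in 4 and nonspecific IgG in 2. The series describes the cells as cortical interneurons made from the stem cells, while the cell type label of each sample reads embryonic stem cells, and peak lists hold no marker expression against which either name could be checked. The labels do not say whether replicates were separate cultures, and every library comes from the same cell line. MYT1L is a neuronal DNA-binding protein with zinc fingers, best known for holding non-neuronal genes down in neurons. In CUT&RUN an antibody tethers a nuclease to chromatin, and the DNA fragments it releases are sequenced. The IgG control has no specific target, and the nuclease also cuts accessible DNA without being tethered. The start of an active gene is usually such an accessible place: a stretch free of nucleosomes, rich in CpG dinucleotides, from which transcription often runs in both directions.

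Among the 274 regions with a single listed start gene, 57.6%, 50.2%, 48.2% and 69.3% of summits in MYT1L replicates 1 to 4 lay downstream of the start. In IgG replicates 1 and 2, 62.0% and 59.9% did. The sequences below show promoters where all summits fell upstream of the start, which is not the usual case. They are taken from the 7 regions with a peak in all 4 MYT1L lists in which the summit of every peak, IgG included, fell in the 250 bases before a gene start listed in the RefSeq table (GRCh38.p14). Each is printed 5′ to 3′ on the strand of its gene and ends at the base before the start, and the capitals run from the first to the last summit of the 5 libraries with a peak. BRD3OS is the gene opposite the bromodomain gene BRD3 (chr9:134025231-134025480, plus strand). NDC1 encodes a membrane protein that anchors the nuclear pore (chr1:53838297-53838546, minus strand), and KPNA3 an importin alpha that carries proteins into the nucleus (chr13:49792683-49792932, minus strand). GTF2H1 encodes a subunit of the transcription and repair factor TFIIH (chr11:18322317-18322566, plus strand), and ATRNL1 an attractin-like membrane protein (chr10:115093115-115093364, plus strand).
BRD3OS: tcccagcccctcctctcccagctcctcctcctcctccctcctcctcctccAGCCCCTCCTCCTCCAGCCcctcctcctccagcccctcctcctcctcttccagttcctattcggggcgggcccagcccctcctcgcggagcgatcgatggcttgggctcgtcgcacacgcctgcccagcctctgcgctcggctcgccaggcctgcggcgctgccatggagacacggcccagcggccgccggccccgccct
NDC1: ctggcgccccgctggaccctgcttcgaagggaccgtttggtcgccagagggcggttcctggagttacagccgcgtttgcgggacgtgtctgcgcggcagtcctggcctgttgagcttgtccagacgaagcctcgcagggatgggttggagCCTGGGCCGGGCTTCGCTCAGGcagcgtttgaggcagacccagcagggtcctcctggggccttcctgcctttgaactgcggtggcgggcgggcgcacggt
KPNA3: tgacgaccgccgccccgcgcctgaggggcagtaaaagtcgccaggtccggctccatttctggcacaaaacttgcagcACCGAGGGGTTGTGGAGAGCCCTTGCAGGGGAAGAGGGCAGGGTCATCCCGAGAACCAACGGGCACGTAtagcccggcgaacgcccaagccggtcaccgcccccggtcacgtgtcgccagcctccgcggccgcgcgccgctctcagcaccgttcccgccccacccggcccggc
GTF2H1: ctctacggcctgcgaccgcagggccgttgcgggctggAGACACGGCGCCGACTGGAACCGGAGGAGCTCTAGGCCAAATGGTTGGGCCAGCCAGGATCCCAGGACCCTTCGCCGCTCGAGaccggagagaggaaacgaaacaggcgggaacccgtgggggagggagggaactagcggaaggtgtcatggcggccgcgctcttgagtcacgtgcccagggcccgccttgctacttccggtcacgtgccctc
ATRNL1: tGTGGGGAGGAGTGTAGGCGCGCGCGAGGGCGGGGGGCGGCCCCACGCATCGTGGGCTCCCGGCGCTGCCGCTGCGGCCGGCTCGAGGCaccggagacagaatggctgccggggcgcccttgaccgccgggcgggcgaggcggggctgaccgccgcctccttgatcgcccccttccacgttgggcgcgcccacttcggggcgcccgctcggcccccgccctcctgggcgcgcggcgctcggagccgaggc

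In the BRD3OS sequence the summits of the 4 MYT1L libraries and IgG replicate 2 lay within 18 bp of each other, between 182 and 200 bases before the start. The capitals there fall in a run of CCTCC repeats: the strand shown held 12 non-overlapping copies of CCTCC in the 300-base window. At least as many were held by 18 of the 22199 windows of protein-coding gene starts in the table (0.0811%). CCTCC was taken from this sequence and is not among the motifs counted below, so the share is a description only. At NDC1 the 5 summits lay within 21 bp, between 79 and 100 bases before the start. The span grew to 68 bp at KPNA3, 82 bp at GTF2H1 and 87 bp at ATRNL1, and in the regions not printed it was 80 bp at WTAP and 189 bp at NUP85. In all 7 of these promoters the IgG peak came from IgG replicate 2.

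The fold enrichment in the deposited lists is the number of fragments over the summit divided by the local background, with 1 added to each. BRD3OS had folds of 11.02, 10.7, 11.5 and 15.3 in MYT1L replicates 1 to 4, and 8.74 in IgG replicate 2. The IgG value lay below every MYT1L value there on this scale, though not when the 1 was left out (13.5, 16.4, 15.2 and 18.06 in MYT1L, 18.06 in IgG). NDC1 had folds of 10.4, 10.4, 6.73 and 16.98, against 6.11 in IgG replicate 2. At NDC1 the MYT1L libraries ranged more widely, and replicate 3 sat close to IgG. KPNA3 had folds of 9.80, 8.12, 6.47 and 13.1 with 6.85 in IgG replicate 2, so MYT1L replicate 3 lay below the control.

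The 377 regions touched the ends of 444 of the 20037 protein-coding genes in the table (2.22%), whereas reproducible regions at gene ends without an IgG peak touched 7796 genes (38.9%). Among the 7102 reproducible regions at gene ends, 5.31% overlapped an IgG peak, and away from gene ends 831 of 5197 did (16%). IgG overlap was therefore less frequent at gene ends than elsewhere in these lists. A single gene accounted for 312 of the 377 regions, 63 served 2 genes and 2 served at least 3. The gene end lay inside the region in 335 (88.9%), within 500 bp outside it in 33, and farther off in 9.

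Recurrence among the MYT1L lists was set by the rule, which kept only regions found in 3 or 4 lists. The counts and shares given here therefore only describe the regions. The lists of MYT1L replicates 1 to 4 held a peak at 370, 296, 352 and 376 of them. All 4 lists held a peak in 263 (69.8%, 95% Wilson interval 64.9 to 74.2), against 51.2% of the 6725 IgG-free regions at gene ends and 79.3% of the IgG-overlapping regions away from them. Intervals here and below cover counting error only. Of the 114 regions found in 3 lists, 81 lacked a peak in replicate 2, the shortest list, and 25 lacked one in replicate 3. With replicate 2 left out and regions chosen again by a peak in at least 2 of the 3 remaining lists, 403 regions resulted. Of these, 344 had a peak in every remaining list (85.4%).

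The 2 IgG libraries seldom marked the same gene end. IgG replicate 2 alone had the peak in 263 regions (69.8%), IgG replicate 1 alone in 97 (25.7%), and both in 17 (4.51%, 2.83 to 7.10). Away from gene ends both libraries had a peak in 375 of 831 regions (45.1%, 41.8 to 48.5), and replicate 2 alone in 158 (19.0%). The 2 lists were of nearly equal length, 976 and 998 peaks. Since the peak calls that chose the regions also give these shares, they carry no test.

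**Figure D1:**
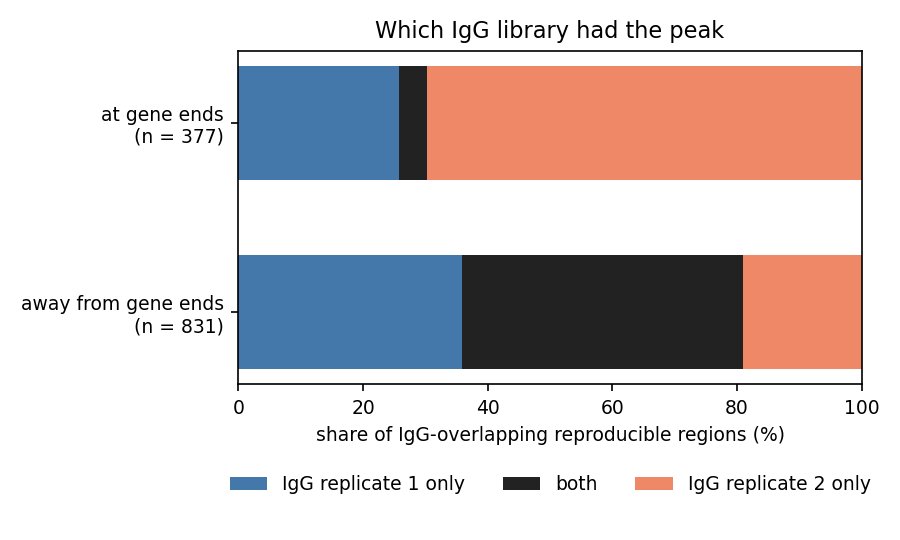
Share of IgG-overlapping reproducible regions (horizontal axis, percent) whose IgG peak was in replicate 1 only, in both or in replicate 2 only, for the 377 regions at gene ends and the 831 elsewhere. The black segment, both libraries, covers 4.51% at gene ends and 45.1% away from them.

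The IgG peaks at these regions held few fragments. The estimated number of fragments over the summit had a median of 7 in both IgG libraries, with ranges of 5 to 32 in replicate 1 and 4 to 17 in replicate 2. In MYT1L replicates 1 to 4 the medians were 18, 11, 16 and 38 fragments. The median MYT1L peak stood at the 83.9th, 73.6th, 79.8th and 90.1st percentile of fold within its own list, and the median IgG peak at the 37.6th and 49.5th. Presence in 3 or 4 lists may itself favour strong peaks, which was not tested. In MYT1L replicates 1 to 4, IgG-free gene-end regions chosen the same way stood at the 71.5th, 60.7th, 66.2nd and 81.7th percentile. IgG-overlapping regions away from gene ends stood at the 93.7th, 85.9th, 89.6th and 79.4th.

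**Figure D2:**
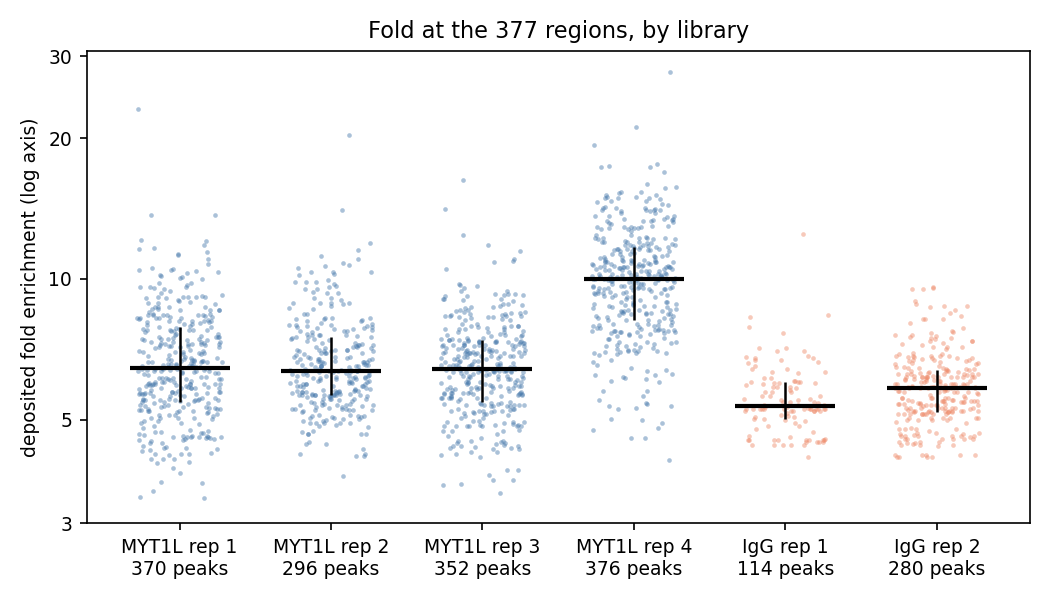
Deposited fold enrichment (vertical log axis) of the strongest peak at each of the 377 regions, by library; points are regions, horizontal bars medians and vertical bars the quartiles. Medians were 6.44, 6.35, 6.40 and 10.01 in MYT1L replicates 1 to 4 and 5.34 and 5.83 in IgG, so replicate 4 stands above the other libraries.

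IgG-free regions at gene ends had lower median folds in each MYT1L library: 5.66, 5.85, 5.75 and 8.54. IgG overlap followed MYT1L strength. With the 7102 gene-end regions ranked by mean MYT1L fold, 1.41% of the weakest decile overlapped an IgG peak and 13.5% of the strongest decile did (96 of 711). Leaving out MYT1L replicate 4, whose folds were highest, the weakest and strongest deciles overlapped in 1.83% and 13.9%. Width moved the same way but less, from 3.38% in the narrowest decile to 7.31% in the widest. The regions had a median width of 950 bp, against 866 bp for IgG-free gene-end regions, and ranged from 377 to 2529 bp.

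**Figure D3:**
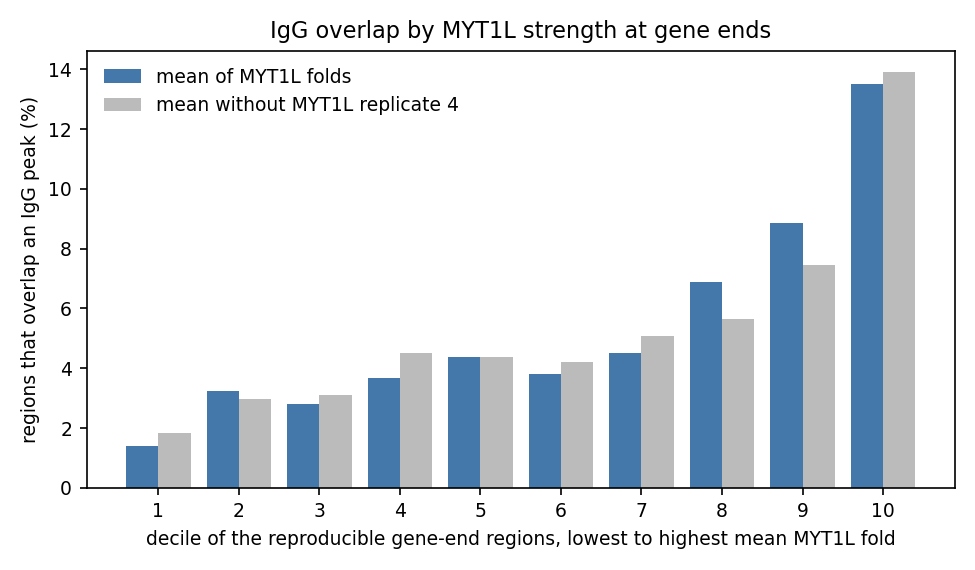
Percent of reproducible gene-end regions that overlapped an IgG peak (vertical axis) in each decile of mean MYT1L fold (horizontal axis, lowest to highest), with and without MYT1L replicate 4. The share was 1.41% in the lowest and 13.5% in the highest decile, and 1.83% and 13.9% without replicate 4.

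Whether MYT1L or IgG was higher at a region depended on the scale. Only libraries with a peak have a value, so both IgG libraries entered the comparison in 17 regions and 1 alone in the others. On the deposited fold, every MYT1L value lay above the IgG values in 169 regions (44.8%). Every MYT1L value lay below in 11 (2.92%), and the groups overlapped in 197 (52.3%). The mean MYT1L fold exceeded the highest IgG fold in 327 regions, with a median ratio of 1.32 and a range of 0.617 to 2.39. Without MYT1L replicate 4 the mean was higher in 266, the median ratio was 1.13, and 60 regions had every value below IgG. With nothing added to fragments and background, the order turned: every MYT1L ratio lay below IgG in 271 regions, the mean MYT1L ratio exceeded the highest IgG ratio in 21, and the median of the quotient was 0.650. On that scale, median ratios were 9.52, 13.7, 9.93 and 13.2 in MYT1L replicates 1 to 4 and 15.03 and 18.7 in the IgG libraries. The median IgG backgrounds were 0.467 and 0.360 fragments, against 0.748 to 2.81 in MYT1L. Over so low a background even a weak IgG peak has a high ratio. At RBKS, IgG replicate 1 held 5 fragments over 0.340 (−log10 q 2.20), a ratio of 14.7. The order on this scale therefore does not show that IgG enrichment was higher. Every MYT1L library was above IgG on both scales in 2 regions, those past the 3′ end of TMEM132C and near TAF11L10. Statements on single regions below refer to the deposited fold, and MYT1L values above IgG on it did not stay above without the added 1 in any region other than these 2.

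**Figure D4:**
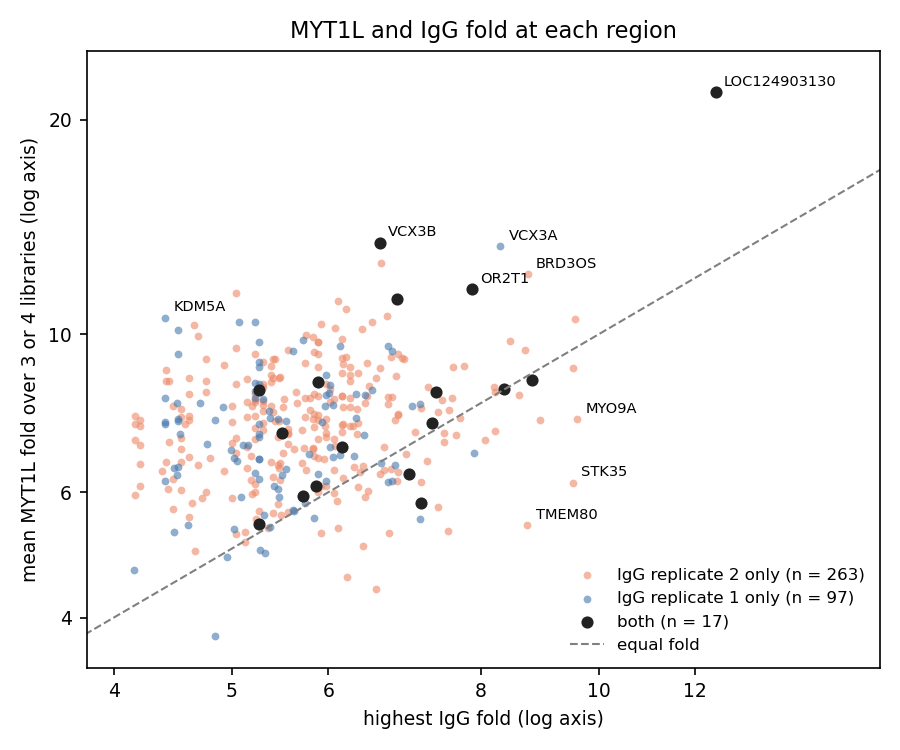
Mean MYT1L fold over the 3 or 4 libraries with a peak (vertical log axis) against the highest IgG fold (horizontal log axis) at each region, coloured by the IgG library with the peak; the dashed line marks equal folds. LOC124903130 stands apart at 21.9 and 12.5, and 327 of the 377 regions lie above the line on this deposited scale.

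LOC124903130, an uncharacterised protein-coding locus, had the highest mean MYT1L fold of the 15 regions with a peak in all 6 lists. The region lies inside the gene, 519 bp from its start (chr13:21377208-21377691, GRCh38). Folds were 23.1, 20.3, 16.3 and 27.7 in MYT1L replicates 1 to 4 (mean 21.9 ± 4.80, SD, n = 4) and 12.5 and 8.33 in IgG. Every MYT1L value was above both IgG values on the deposited scale. Without the added 1, the MYT1L ratios were 28.8, 33.6, 25.6 and 37.4 and the IgG ratios 27.5 and 24.98, so the groups overlapped. All 6 summits fell within 15 bp, the tightest placement among the 377 regions.

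DHX32, which encodes a putative RNA helicase, shares its region with FANK1 (chr10:125895732-125896864). Its MYT1L folds were even, 10.3, 11.9, 11.04 and 11.6, with 6.83 and 5.15 in IgG, and its 6 summits lay within 41 bp. AFG3L2, a subunit of a mitochondrial inner-membrane protease, had folds of 7.91, 6.65, 8.37 and 10.5, with 5.26 and 5.19 in IgG. On the deposited scale the libraries of the 2 antibodies did not overlap in either region. RNF7, the RING subunit of cullin ubiquitin ligases, differed: 8.24, 5.94, 6.73 and 12.2 in MYT1L with 4.48 and 7.35 in IgG, where the IgG libraries straddled the lower MYT1L values.

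At the other end, 11 regions had every MYT1L fold below IgG, against 271 when nothing is added to fragments and background. TMEM80, a transmembrane protein gene, had the lowest ratio of mean MYT1L to IgG fold on the deposited scale, 0.617, though not without the added 1, where it had 5.74, 8.11 and 7.68 against 16.02. Its deposited folds were 4.72, 5.09 and 6.36 in MYT1L replicates 1, 2 and 4, with no peak in replicate 3, and 8.73 in IgG replicate 2. STK35, a kinase gene, had folds of 5.47, 5.80, 4.16 and 9.32, against 9.52 in IgG replicate 2. YY1, the zinc finger factor that binds many promoters, had 4.80, 5.74, 5.71 and 4.90, against 7.52. IgG replicate 1 had no peak at TMEM80, STK35 or YY1, so the control value there came from 1 library. In TMEM80 and YY1 the value of IgG replicate 2 stood clear of all MYT1L values, while STK35 replicate 4 nearly reached it. Each fold is that of the strongest peak in a merged region, so the values compared need not come from one place. The YY1 summits spanned 1747 bp, the widest span of the 377 regions. At STK35 the IgG summit lay at position 2102184 and those of MYT1L replicates 2 to 4 at 2103009, 2102780 and 2102824. The IgG peaks at TMEM80, STK35 and YY1 held 17, 13 and 9 fragments. The others included EPHB6, U2AF2 and TSEN34, a tRNA splicing endonuclease subunit.

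The largest ratio of mean MYT1L to highest IgG fold, 2.39, belonged to the region shared by KDM5A, a histone H3 lysine demethylase, and CCDC77 (chr12:389107-389720). Its folds were 11.3, 10.4, 7.31 and 13.2, against 4.41 in IgG replicate 1. The region of UQCC6, a respiratory complex III assembly factor, and TDG, the thymine DNA glycosylase, followed with 11.4, 9.52, 7.44 and 17.3, against 5.04 in IgG replicate 2. TPR, a nuclear pore basket protein, had 9.03, 9.01, 8.86 and 10.6, against 4.51 in IgG replicate 1. All MYT1L values were above the IgG value in these 3 regions on the deposited scale, and in none of them without the added 1. NBN, part of the DNA break repair complex with MRE11 and RAD50, showed 10.5, 9.33, 7.80 and 13.98, against 5.23.

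IgG replicate 2 had folds of 9.60 at MYO9A, an unconventional myosin, and 9.52 at CSE1L, which exports importin alpha from the nucleus. MYT1L folds were 5.91, 7.53, 6.10 and 10.8 at MYO9A and 8.64, 8.43, 7.35 and 11.5 at CSE1L. MYT1L replicate 4 alone exceeded the control at both genes. These 2 regions were singled out after their values were seen.

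Nearly all the regions lay at gene starts, which the rule did not ask for. The RefSeq tables gave a strand and at least one start for a gene at 325 of them, and 320 of these lay at the 5′ end of a gene (98.5%, 96.4 to 99.3), as did 98.5% of IgG-free gene-end regions. In 5 of the 320 (NBPF6, RC3H1, LRRC37A2, EPHB6 and CLTRN) the region lay at the outermost 5′ end of the gene and over 1000 bp from a start listed in the table. A pair of starts on opposite strands was present in 40 of the 315 regions at a listed start (12.7%, 9.47 to 16.8), against 11.6% of IgG-free regions. The other 52 regions could not be placed, among them every region on chromosome 8.

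In 5 regions, 3′ gene ends alone were within reach: VCX3A, VCX3B, OR2T1, TMEM132C and LOC102724652. VCX3B, a member of a testis-expressed family on the X chromosome, had folds of 13.7, 11.05, 14.1 and 14.9 in MYT1L and 6.61 and 6.25 in IgG at a region 61 bp past the gene (chrX:8466571-8467308). VCX3A, of the same family, had 12.1, 14.1, 12.4 and 14.6, with 8.30 in IgG replicate 1, at a region 99 bp past the gene (chrX:6532803-6533519). OR2T1, an olfactory receptor, had 13.7, 11.2, 10.9 and 10.5, with 7.66 and 7.86 in IgG. The MYT1L values lay above the IgG values in all 3 on the deposited scale alone, and replicate 4 did not stand out as it did at promoters. All 5 regions had a peak in IgG replicate 1, as 114 of the 377 regions did.

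Summits gathered close to the start. Among the 274 regions with a single listed start gene, the median summit lay 51, 2, -7 and 106.5 bp from the start in MYT1L replicates 1 to 4, with positive values inside the gene, and 53 and 69 bp in the IgG libraries. Between 69.2% and 76.1% of MYT1L summits, and 63.3% and 67.6% of IgG summits, fell within 250 bp of the start. MYT1L replicate 4 placed 31.4% of its summits 100 to 200 bp inside the gene, whereas replicate 3 placed 20% of its summits in the 100 bp before the start. IgG-free regions had medians of 57, 28, -5 and 97 bp in the 4 MYT1L libraries, so the same differences between libraries were present there.

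**Figure D5:**
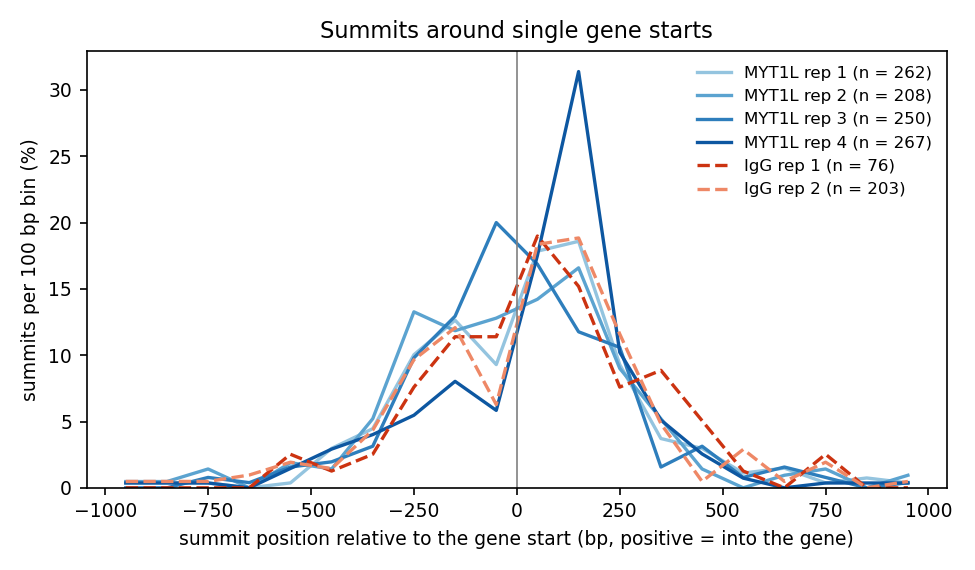
Position of the strongest peak's summit relative to the gene start (horizontal axis, bp, positive into the gene) as percent of each library's summits per 100 bp bin (vertical axis), for 274 regions with a single start gene; n counts summits within 1000 bp. MYT1L replicate 4 reaches 31.4% at 100 to 200 bp inside the gene, and the IgG libraries reach 19.0% and 18.8% in the 200 bp after the start.

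Summit positions were tested between antibodies, though they were not wholly independent of the rule. The rule did not use summits, but it kept only regions where an IgG peak overlapped the merged MYT1L region. This limits how far apart a MYT1L and an IgG summit can lie. In the 15 regions with a peak in all 6 lists, the median distance between summits averaged 129.5 bp over the 8 pairs of a MYT1L and an IgG library (80 to 175 bp). It averaged 119 ± 52.1 bp over the 6 pairs of MYT1L libraries (SD, n = 6 pairs) and was 134 bp between the IgG libraries. Summits of different antibodies were 8.21 bp farther apart than summits of one antibody, which an exact permutation test over the 15 ways of assigning 4 and 2 antibody labels did not separate from 0 (two-sided p = 0.733, smallest possible p = 0.0667). The sign of the difference held in 9 of 11 alternatives and turned in 2. Without MYT1L replicate 2 it was -10.75 bp (p = 0.6, exact permutation test), and without replicate 4 it was -2.67 bp (p = 0.9, exact permutation test). Over the 263 regions in all 4 MYT1L lists it was 14.1 bp, with the smallest possible p (0.0667, exact permutation test). The number of splits allows no p below 0.05. The test does not show that the positions were the same.

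Over all libraries with a peak, the summits of a region spanned a median of 277 bp (quartiles 162 and 438 bp). The span was at most 50 bp in 9 regions: LOC124903130, BRD3OS, NDC1, FCHO2, DHX32, the outer TAF11L10 region, ITFG1, SPATA2L and FBXL13. In regions with a peak in all 4 MYT1L lists, MYT1L summits alone fell within 50 bp in 16 of 263 (6.08%), against 51 of 3441 IgG-free gene-end regions (1.48%). The respective median spans were 249 and 276 bp.

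The promoters had the composition of CpG islands. The table's windows run from 250 bases before to 50 after a start, and 314 distinct windows belonged to the regions. Their median GC content was 69.0%, against 68.3% in the 5420 windows of IgG-free regions and 62.3% in all 22199 windows. A ratio of observed to expected CpG of at least 0.6 was reached by 95.9%, 94.5% and 62.2% of the 3 groups. The ratio was below 0.4 in 3 windows of the regions, those of LOC124903130, KRTAP9-1, a hair keratin-associated protein, and NEXMIF, a neuronal gene of the X chromosome. A window does not always cover the peak. At single starts, MYT1L replicate 4 had 31.4% of its summits 100 to 200 bp inside the gene, beyond the window. The LOC124903130 region, 519 bp from its start, lies outside its window.

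Short motifs were counted on both strands of these windows as exact letters. AAGTT, the core of the MYT1 family's binding site, was present in 18.8% of the regions' windows, 20.6% of IgG-free windows and 30.05% of all windows. The GC box GGGCGG was present in 81.8%, 79.1% and 56.3%, and the ETS motif CCGGAAG in 18.2%, 20.4% and 12.8%. The CCAAT box was found in 34.1%, 37.9% and 34.7%, and TATAAA in 2.87%, 3.52% and 9.47%. The E-box CACGTG was found in 9.24% of the regions' windows, 10.8% of IgG-free windows and 8.34% of all windows. The YY1 motif AAGATGG was found in 8.28%, 7.82% and 6.04%, and the NRF1 motif GCGCATG in 8.28%, 7.97% and 5.26%. The TCTCGCG element had 6.05%, 7.92% and 4.59%, and the CRE motif TGACGTC 6.37%, 5.98% and 4.09%. The share in the regions was nearer to that of all promoters for CCAAT, the E-box and TCTCGCG, and nearer to that of IgG-free promoters for the other 7 motifs. A match describes the letters in a window and not a bound site, and no motif searched is contained in another. Sequence at summits outside the windows was not searched, so the shares do not show which motifs the regions themselves hold.

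Gene lists were read against the 2.22% of all protein-coding genes with such a region. Among zinc finger genes 16 of 555 had one (2.88%), including ZNF274, ZNF451, ZNF330 and ZNF654. ZNF451, a SUMO ligase, had folds of 7.34, 7.74, 9.41 and 15.3, against 4.69 in IgG replicate 2. Among mitochondrial ribosomal protein genes 4 of 77 did (MRPL48, MRPS16, MRPS24 and MRPS27), and among spliceosome genes 4 of 85 (LSM5, PRPF40B, SRSF4 and U2AF2). LSM5, a ring subunit of U6 snRNA particles, had 8.61, 8.67, 6.83 and 12.9, against 6.15 in IgG replicate 2. The groups did not overlap at ZNF451 or LSM5 on the deposited scale. Without the added 1 they overlapped at ZNF451, and IgG replicate 2 was highest at LSM5.

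Cell cycle genes with a region were CCNB2, CDK4 and GMNN, 3 of 40. GMNN, which encodes the replication licensing inhibitor geminin, had folds of 8.36, 6.72, 6.55 and 14.98, against 5.27 in IgG replicate 1. CDK4, the G1 cyclin-dependent kinase, had 5.22, 5.35 and 6.25 in MYT1L replicates 1, 3 and 4, against 5.40 in IgG replicate 2, so its groups overlapped. Of the chaperone genes 3 of 84 had a region (BAG5, DNAJA1 and DNAJC21), and of the cytosolic ribosomal protein genes 2 of 88 (RPL15 and RPS27L). RPL15 had 7.95, 6.80, 10.8 and 12.2, against 6.77 in IgG replicate 1, which the lowest MYT1L value barely exceeded. Oxidative phosphorylation (NDUFB2, 1 of 88), proteasome (PSMD9, 1 of 48), translation factor (EIF5B, 1 of 70) and clustered protocadherin genes (PCDHAC1, 1 of 53) had 1 each.

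No gene of the lineage lists examined had a region, but these lists are short. Genes outside them, such as DRD2, GABRG3, SCN3B and ID4, had one. No region lay at an end of the 40 ventral forebrain and interneuron genes, the 36 proneural and cortical neuron genes, the 38 Notch pathway genes, the 33 pluripotency genes, the 38 liver and muscle genes or the 3 MYT1 family genes. The same held for 39 HOX genes, 70 clustered histone genes and 32 immediate early genes. IgG-free reproducible regions, which lay at 38.9% of all protein-coding genes, lay at 8 of the ventral forebrain genes, 8 of the proneural genes, 15 of the Notch genes, 26 of the histone genes and 18 of the immediate early genes. They lay at 3 of the pluripotency genes, 3 of the liver and muscle genes, 1 of the HOX genes and 0 of the MYT1 family genes. Over all protein-coding genes the share with a region was 2.22%. Whether these lists held fewer than other genes, separately or together, was not tested, and the zeros single out no list. ID4, an inhibitor of basic helix-loop-helix factors, had one of the 5 widest regions (2341 bp), with folds of 5.13, 5.74, 7.0 and 6.11, against 5.88 in IgG replicate 2.

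Gene families with copies had a small group of the regions, and where copies are near-identical reads cannot be placed with certainty among them. Of 13 TAF11L genes, relatives of the TFIID subunit TAF11 in a cluster on chromosome 5, 6 had a reproducible region and 4 had one with an IgG peak (TAF11L5, TAF11L7, TAF11L9 and TAF11L10). TAF11L10 had 2 such regions and was the only gene with more than 1. Promoter windows of these 4 genes were 99.3% to 100% identical, base by base. TAF11L7 had folds of 8.36, 8.001, 8.26 and 8.84 in MYT1L, with 8.35 and 5.95 in IgG, and its estimated fragments were 103, 40, 85 and 73, with 32 and 13 in IgG. The fragments there were far above the medians of 18, 11, 16 and 38, while the folds of IgG replicate 1 and MYT1L lay together. TAF11L5 had 4.36, 5.32, 5.03 and 4.99 in MYT1L with 5.32 in IgG replicate 1, again with no separation.

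Of the 877 genes on a list of multicopy families 9 had a region (1.03%): USP17L11, USP17L15 and USP17L18 of the USP17L deubiquitinase genes, FAM90A15, FAM90A16, NBPF1, NBPF6, KRTAP9-1 and OR2T1. Families outside that list had one at VCX3A and VCX3B, of 4 VCX genes, and at both FAM86B genes. Compared base by base without gaps, the promoter windows of VCX3A and VCX3B were 74% identical and those of NBPF1 and NBPF6 25.7%. These values are lower than in TAF11L, but a shift between windows also lowers them, so they do not show that the copies differ. The VCX3A and VCX3B regions lie past the 3′ ends, so promoter windows do not describe them. NBPF1 had folds of 7.61, 8.05, 6.93 and 11.8 in MYT1L and 4.58 and 8.82 in IgG, so the IgG libraries lay on both sides of most MYT1L values.

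Ends of noncoding genes were often nearby. An end of a lncRNA gene lay within 1000 bp of 107 regions (28.4%, 24.1 to 33.1), against 23.6% of IgG-free gene-end regions and 5.17% of IgG-overlapping regions away from gene ends. Pseudogene ends lay near 6 regions, transcribed pseudogene ends near 7 and miRNA ends near 4.

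The regions nearest to the limits of the rule were as follows. The outer TAF11L10 region lay 997 bp from the gene, the LOC102724652 region 906 bp and the GMPS region 830 bp. Just outside, regions at 1060 bp from KANSL1L, 1156 bp from LOC124904331 and 1220 bp from PCDHA5 were left out, with MYT1L folds of 5.36 to 13.4 and IgG folds of 5.04 to 6.02. The smallest overlaps with an IgG peak were 98 bp at CCDC110 and 110 bp at HYAL4, and the IgG peak lay wholly inside the region in 365 of 377 (96.8%). A further 29 IgG-overlapping regions at gene ends had a peak in 2 MYT1L lists and were left out.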

How the data were processed

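CUT&RUN libraries of 4 MYT1L and 2 IgG samples were represented by the peak lists the authors deposited, 1 per library. Peaks were called with MACS2 on hg38, per the submitters' processing notes; the aligner, thresholds and any control library are not given in the sources used here, and the lowest −log10 q deposited was 2.00 to 2.01. The deposited lists give a fold (linear ratio over background), −log10 p, −log10 q and an integer score per peak; these are the authors' values. Peak names inside the MYT1L files carry numbers 1 higher than the sample titles, and the titles were followed. Library depth is unknown. Fragments over each summit and background were estimated from fold and −log10 p by MACS2's Poisson formula. The estimate gave whole numbers for 100% of peaks at the regions (tolerance 0.0002). It was tested on 1000 simulated peaks, all with more fragments than the IgG median of 7, so smaller counts were not covered.

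Where a region held several peaks of a library, the strongest by q was used. Gene ends came from RefSeq (GRCh38.p14, 20037 protein-coding genes); starts and promoters were listed for 15843 of them. Python 3.11.15, pandas 2.3.3, numpy 2.4.6 and scipy 1.17.1 were used. Named regions were the 10 with the highest MYT1L fold in all 6 lists, the 10 with the highest IgG fold in both IgG lists, up to 10 with every MYT1L fold below IgG, the 10 with the largest ratio of MYT1L to IgG fold, those at listed genes (up to 4 a list), those nearest a limit, the widest 5 and genes with over 1 region. One region is not reported here. The regions and gene lists were chosen with earlier results of these data known. Alternatives were a stricter q, equal list lengths, other overlaps, distances and library numbers, and leaving out each library; the distance from the midpoint, the ratio without the added 1 and leaving out libraries from the comparison of folds were chosen after seeing the data.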

Additional observations from a re-analysis of the deposited data

Results flagged for a closer look

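MYT1L replicate 4 stood apart from the other MYT1L libraries at the 377 regions. Its median fold was 10.01, against 6.35 to 6.44 in replicates 1 to 3, and its median −log10 q was 26.0, against 6.25 to 9.05. For both measures the gap between replicate 4 and its nearest neighbour was above Dixon's 95% critical value for 4 samples; of 7 measures examined these 2 passed it, and chance passes about 1 in 20 groups. The lists that chose the regions also gave these values, so this marks them for a look and supports no finding. In regions with a peak in all 4 lists, replicate 4 had the highest fold in 232 of 263, as in 2996 of 3441 IgG-free gene-end regions.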

How the results depend on the processing

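Keeping only peaks with a −log10 q of at least 5 left 84 regions, 11.6% of the IgG-overlapping reproducible regions, with 95.7% at a gene start; requiring a peak in both IgG lists left 17. The cause of these shifts beyond the smaller lists was not tested. Leaving out 1 library at a time gave 114 to 403 regions, 14.5% to 34.4% of the IgG-overlapping regions at gene ends, 69.3% to 85.4% with a peak in every MYT1L list and 94.7% to 99.2% at a gene start. The lowest number, gene-end share and gene-start share came without IgG replicate 2, and the highest share in every list without MYT1L replicate 2. Where a MYT1L library was left out, a peak in at least 2 of the remaining lists was required. The difference in summit distance ranged from -10.75 to 29.1 bp over the libraries left out and was below 0 without MYT1L replicate 2 (-10.75 bp) and without replicate 4 (-2.67 bp); its exact permutation p was 0.0667 to 0.9 over all alternatives, the lowest, with 14.1 bp, over the 263 regions in all 4 MYT1L lists, where it is the smallest the splits allow. Equal list lengths, stricter overlap, other distances and other numbers of MYT1L lists left 263 to 406 regions. No paired analysis was possible because the results other than the summit distance come from no test, and the summit test compares libraries with each other and has no per-sample value to block. On the ratio with nothing added to fragments and background, the mean MYT1L value exceeded IgG in 21 regions, not 327, and the median quotient was 0.650, not 1.32; leaving out 1 library gave 101 to 338 regions (101 of the 114 with a peak in IgG replicate 1, without IgG replicate 2) and 1.13 to 1.38. IgG peaks at the regions rest on a median of 7 fragments over a summit.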
